A study of Arabidopsis thaliana with 12 samples.

Results

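The genes described here had higher transcript levels in nitrate-treated than in control wild-type roots of Arabidopsis thaliana, with little or no such change in a mutant lacking a pair of transcription factors. They were chosen by a rule on probe sets, the groups of short probes that give 1 value per transcript on an Affymetrix array. The mean log2 level with KNO3 had to exceed that with KCl by at least 1 in Col 0, with all 3 KNO3 samples above all 3 KCl samples, and by less than 0.5 in tga1_tga4. Of 22746 probe sets, 573 met the Col 0 condition and 40 met both. Of these, 5 were left out by name, namely 2 probe sets without a single gene name, the expansin gene EXPA9 and the extensin-type genes HRGP1 and AT4G08410, which leaves 35. A single gene is named for 20 of the 35, several genes for 1 and none for 14, and probe sets without a single gene name are given by their identifier only. The rule also leaves out some gene families by symbol, which could not be applied to these 15, so they may hold genes of those families.

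The study compared 4 groups of 3 root samples from 15-day-old seedlings, namely the TGA1 and TGA4 double mutant (tga1_tga4) given KNO3 or KCl and wild-type Col 0 given KNO3 or KCl. Each salt was supplied at 5 mM for 2 h from the start of the light period. All seedlings had first grown for 14 days on 0.5 mM ammonium succinate as the nitrogen source and 3 mM sucrose, with 16 h of light and 8 h of dark at 22 °C, so the control roots were not without nitrogen. The alleles of the mutant are not given in the sources used here, and transcripts of TGA1 and TGA4 were not analysed here by name. The labels do not say how the replicates were kept apart, so a p-value here reflects only how these samples varied, some of which may be technical. Whole roots were used, so fewer cells of a type and less RNA per cell cannot be told apart.

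Nitrate is both a nutrient and a signal for roots, and within hours it raises genes of nitrate uptake, nitrate reduction and reductant supply and alters genes of growth. TGA1 and TGA4 are bZIP transcription factors, of a family known from defence and redox signalling and also studied in the root nitrate response. Of the 20 named genes, 13 were assigned to secreted or wall-acting proteins from general knowledge after they had been seen, with no test and no share over all genes. Class III peroxidases are secreted haem enzymes that use peroxide to cross-link wall polymers or to make the radicals that loosen them, and extensins and other proline-rich glycoproteins form a protein network in the wall.

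Both nitrate changes chose the genes and are given as a description. The change with KNO3 had a median of 0.26 in tga1_tga4, with a range from -0.21 to 0.50, against a median of 1.14 in Col 0, with a range from 1.01 to 2.47. These medians correspond to a 1.20-fold change in tga1_tga4, against a 2.20-fold change in Col 0. By limma with Benjamini-Hochberg adjustment over all probe sets, 0 of the 35 were called higher in tga1_tga4 (1 at an unadjusted p under 0.05), where 3.17% of all probe sets were. By the same test, 27 of the 35 were called higher in Col 0, where 3.32% were. The 3 mutant KNO3 samples all lay above the 3 mutant KCl samples for 4 of the 35, where 9.86% of all probe sets do so, and for 485 of the 524 other probe sets that met the Col 0 condition. Around the limit of 1 in Col 0, AT1G65570, AT5G49560 and 260344_at lay just inside at 1.01, 1.01 and 1.03. AT2G41970, 253191_at and AT3G12540 lay just outside at 1.00, 0.99 and 0.97, the first below 1 before rounding. Around the limit of 0.5 in tga1_tga4, AT3G49960, 263867_at and 261069_at lay inside at 0.50, 0.48 and 0.47, the first below the limit before rounding, and AT2G37540, 258765_at and 260867_at outside at 0.52, 0.53 and 0.53. Neither limit therefore falls in a gap between separate groups.

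**Figure D1:**
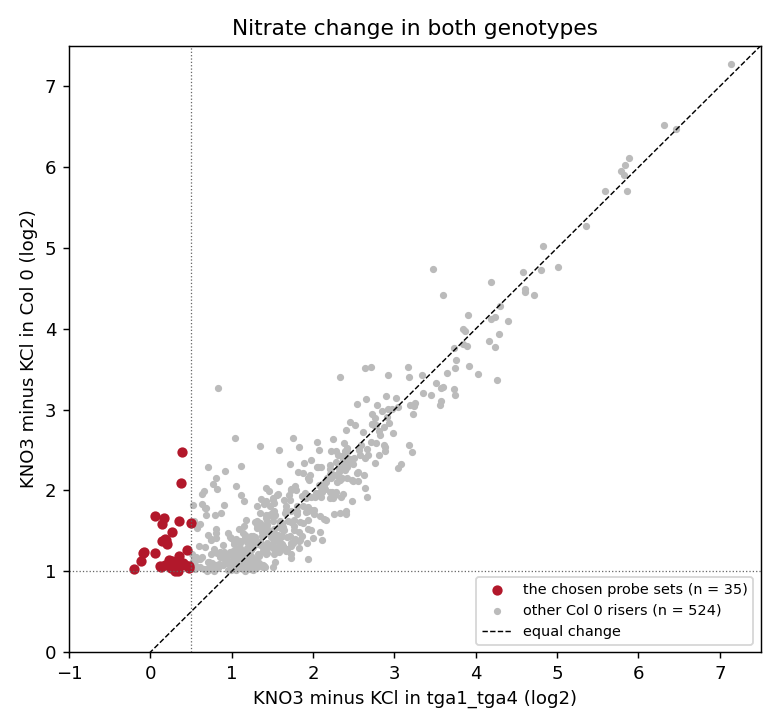
Change with nitrate (mean KNO3 minus mean KCl, log2, n = 3 samples per mean) in tga1_tga4 on the x axis and in Col 0 on the y axis, for the 35 chosen probe sets and the 524 other probe sets that met the Col 0 condition. Dotted lines mark the limits of 0.5 and 1 and the dashed line marks equal change. The 35 border on the other points with no gap.

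The test of the difference between both nitrate changes called none of the 35. The interaction (the change in tga1_tga4 minus that in Col 0) ran from -2.08 to -0.57 with a median of -0.96, and 0 of the 35 passed limma with Benjamini-Hochberg adjustment, where 0.0044% of all probe sets did. That share is 1 probe set, at -2.38 (limma adjusted p = 0.00731), which met both limits and is one of the unnamed probe sets left out, so the count of 0 rests in part on that exclusion. The mean of that probe set was 0.87 with KNO3 and 0.62 with KCl in tga1_tga4, against 5.30 and 2.67 in Col 0. It was thus low in the mutant under both salts. At an unadjusted p under 0.05 there were 22 of the 35, where 1.26% of all probe sets lay lower at that level, but the rule chose on this difference and nothing is read from that count. The 95% interval of a single interaction was wide. It ran from -3.25 to -0.91 for 260950_s_at, the member with the largest one, and from -1.24 to 0.11 for 263867_at, the member with the smallest. A nitrate rise weaker in the mutant is thus how these probe sets were picked, and it is not shown by a test for any single one of them. With the genotypes swapped, the rule picks 13 probe sets, against 40 as written, a count taken after seeing the data. Both counts come from the same 12 samples. Leaving out 1 sample moved the count of 35 to between 28 and 63, so nothing is read from the difference.

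The levels under each salt are described next, and since the rule chose on the same 4 group means, no result about the mutant is read from them. Under KCl the mean was higher in tga1_tga4 than in Col 0 for all 35, by a median of 0.72 (1.65-fold) and a range from 0.24 to 2.14. Under KNO3 the mutant mean was lower for 29 and higher for 6, with a median of -0.20, and it lay within 0.5 of the Col 0 mean for 31. The difference under KCl was the larger in size for 32 of the 35, as for 55.4% of all probe sets. The rule requires the KCl difference to exceed the KNO3 difference by more than 0.5, and it does not set the size of either. The spread of the 35 was widest in the mutant KCl group, and choosing on a small mutant change favours high values there. Among the 524 other probe sets that met the Col 0 condition, the median difference was 0.06 under KCl and 0.01 under KNO3. The 35 and the 524 were divided by the mutant's nitrate change, which contains its KCl mean, so these medians are no comparison between them.

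**Figure D2:**
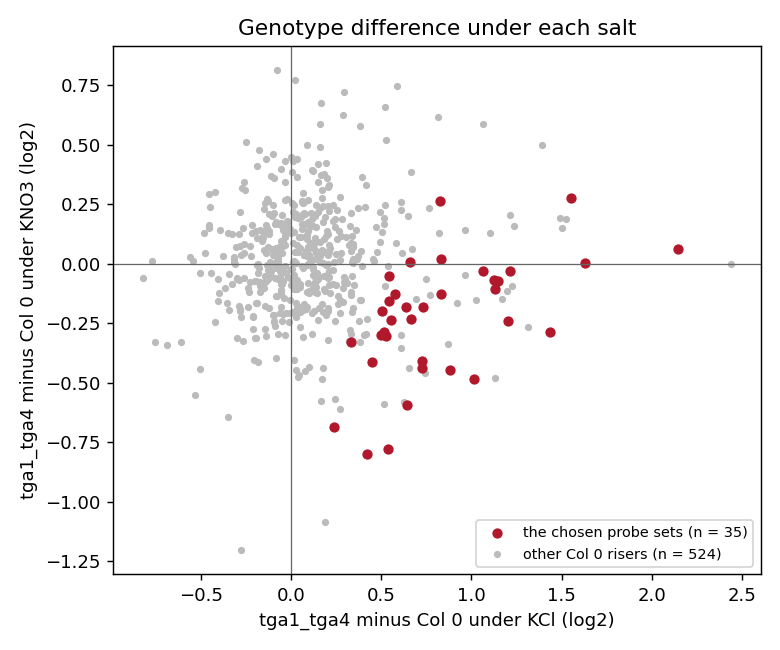
Difference between genotypes (mean of tga1_tga4 minus mean of Col 0, log2, n = 3 samples per mean) under KCl on the x axis and under KNO3 on the y axis. The 35 chosen probe sets lie right of 0 on the x axis, at 0.24 to 2.14, and spread on the y axis from -0.80 to 0.28, while the other 524 centre near 0 on both axes.

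No single difference under KCl passed the test. Of the 35, 0 were called between genotypes under KCl by limma (22 at an unadjusted p under 0.05), where 0.0176% of all probe sets were. All 22 were higher in the mutant, where 1.77% of all probe sets were higher at that level. Under KNO3, 0 were called (4 at an unadjusted p under 0.05), where 0.0132% were, and all 4 were lower in the mutant, where 0.897% of all probe sets were. The 3 mutant KCl samples all lay above the 3 Col 0 KCl samples for 23 of the 35, where 3.81% of all probe sets do so, but the rule favours low Col 0 KCl values and high mutant KCl values, and nothing is read from that count. Under KNO3 the mutant samples all lay below the Col 0 samples for 4 of the 35, where 3.57% of all probe sets do so. The rule also favours high Col 0 KNO3 values and low mutant KNO3 values. Nothing is therefore read from any of these counts, adjusted or not, under either salt.

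The mutant KCl samples were not alike. Paired by replicate number, the median difference between tga1_tga4 and Col 0 under KCl was 0.30 for number 1, 1.04 for number 2 and 1.04 for number 3. Mutant KCl replicate 1 was the lowest of its group for 29 of the 35 (82.9%), against 36.3% of the 524 other probe sets that met the Col 0 condition and 32.3% of all probe sets. The rule used the mean of that group and not the order within it. It favours a high mean there, so the order need not be independent of the rule, and nothing is read from that share. Without mutant KCl replicate 1, 63 probe sets met the rule, all 35 among them. Under KNO3 the median differences between genotypes for numbers 1, 2 and 3 were -0.22, -0.17 and -0.19. In mutant KCl replicates 2 and 3, the median level of the 35 was 0.89 and 1.06 above the Col 0 KCl mean, and in replicate 1 it was 0.45 above. In Col 0 the KNO3 samples stood at 1.37, 1.12 and 1.11 on the same scale. Without both KCl samples numbered 1, the median difference under KCl was 0.92. Since most of the 35 moved together among the mutant KCl samples, they are not 35 separate measurements of the mutant.

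**Figure D3:**
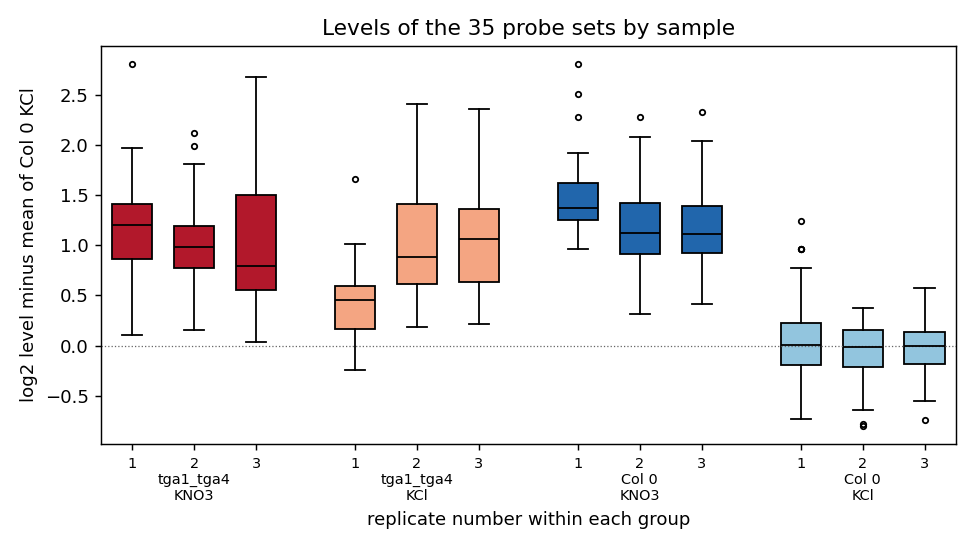
Level of the 35 probe sets in each sample, as log2 level minus the probe set's mean over the Col 0 KCl samples, by group and replicate number on the x axis. Boxes span the quartiles with the median as a line, whiskers reach to 1.5 times the box height and circles lie beyond. Mutant KCl replicate 1, with a median of 0.45, lies below mutant KCl replicates 2 and 3.

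The difference between genotypes averaged over both salts is a contrast that the rule did not use directly. For the 35 its median was 0.23, and it was above 0 for 32 of them, where 48.4% of all probe sets were above 0. By limma with Benjamini-Hochberg adjustment, 0 of the 35 passed, where 0.022% of all probe sets did, and 10 were at an unadjusted p under 0.05, all of them higher in the mutant, where 1.38% of all probe sets were. With same-numbered samples of a salt paired, 10 probe sets passed over the whole table instead of 5, and again 0 of the 35, with a smallest adjusted p of 0.122 (limma). The largest of these averages was that of 260950_s_at, at 1.104 with a standard error of 0.27, and the smallest was that of AT1G55265, at -0.23 with a standard error of 0.22. This contrast is independent of the rule only if the spread is equal in all groups. The median SD of the 35 was 0.32 in tga1_tga4 KNO3, 0.50 in tga1_tga4 KCl, 0.29 in Col 0 KNO3 and 0.27 in Col 0 KCl, so the averages too are given as a description.

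Of the 20 members with a single gene name, 4 encode class III peroxidases, all with a mean higher in the mutant by 0.83 to 1.15 under KCl and differing by -0.13 to 0.02 under KNO3. AT3G49960 stood at 4.98, 5.29 and 5.41 in tga1_tga4 KNO3 samples, against 4.40, 4.86 and 4.92 in tga1_tga4 KCl samples. It stood at 5.31, 5.28 and 5.18 in Col 0 KNO3 samples, against 4.23, 3.19 and 3.58 in Col 0 KCl samples. The Col 0 KCl samples were the lowest 3 of the 12, and the mutant KCl samples lay between them and both nitrate groups. Its nitrate change was 0.50 ± 0.23 in tga1_tga4 and 1.59 ± 0.23 in Col 0 (log2 difference ± SE, n = 3 per group).

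AT1G30870 stood at 6.78, 6.45 and 6.44 in tga1_tga4 KNO3 samples, against 5.66, 6.75 and 6.47 in tga1_tga4 KCl samples. It stood at 6.95, 6.77 and 6.18 in Col 0 KNO3 samples, against 5.38, 5.00 and 5.06 in Col 0 KCl samples. In the mutant the KCl samples numbered 2 and 3 were at the level of nitrate-treated roots, and the sample numbered 1 was nearer to the Col 0 controls. AT5G17820 showed the same arrangement, with 7.94, 7.55 and 7.57 in tga1_tga4 KNO3 samples, against 7.01, 7.92 and 7.80 in tga1_tga4 KCl samples. It stood at 7.91, 7.79 and 7.75 in Col 0 KNO3 samples, against 6.96, 6.53 and 6.74 in Col 0 KCl samples. AT5G51890 stood at 4.45, 3.74 and 4.69 in tga1_tga4 KNO3 samples, against 3.34, 4.37 and 4.38 in tga1_tga4 KCl samples. In Col 0 it stood at 4.19, 4.05 and 4.58 with KNO3, against 3.03, 3.13 and 3.43 with KCl. Its mutant KCl replicate 1 fell within the range of the Col 0 KCl samples, so the groups overlapped, and its Col 0 nitrate change of 1.08 ± 0.30 (log2 difference ± SE, n = 3 per group) was not called (limma adjusted p = 0.0646).

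The wider peroxidase family is given beside these 4. Of 73 class III peroxidase genes listed from general knowledge after the 35 were known, 55 were measured under a single name, the 4 members included. In tga1_tga4, 1 of the 55 rose with nitrate, 4 fell and 50 did not pass, and in Col 0, 5 rose, 2 fell and 48 did not pass (limma, Benjamini-Hochberg; 5.12% and 5.51% of all probe sets were called in either direction). The Col 0 count includes members, which the rule chose for rising there. Without the 4 members, 1 rose and 4 fell in tga1_tga4, and 2 rose and 2 fell in Col 0. Among the 51 that are not members, the median difference between genotypes was 0.04 under KCl and -0.10 under KNO3, against -0.01 and -0.00 over all probe sets. The non-member AT4G26010 had the largest Col 0 nitrate change of the family, and was singled out after its values were seen. It changed with nitrate by 0.70 in tga1_tga4, above the limit of the rule, and rose by 2.29 in Col 0 (limma adjusted p = 0.167 in tga1_tga4 and 0.00015 in Col 0). Under KCl its mean was 1.32 higher in tga1_tga4 than in Col 0. The peroxidase gene AT4G36430 fell with nitrate in both genotypes, by 2.13 in tga1_tga4 and 1.75 in Col 0 (limma, adjusted p = 0.00128 and 0.00523). AT4G08780 and AT1G71695 had changes of -1.82 and -1.76 in tga1_tga4 and -1.86 and -1.60 in Col 0, which did not pass. These 3 genes differed between genotypes by 0.03 to 0.19 under KCl.

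**Figure D4:**
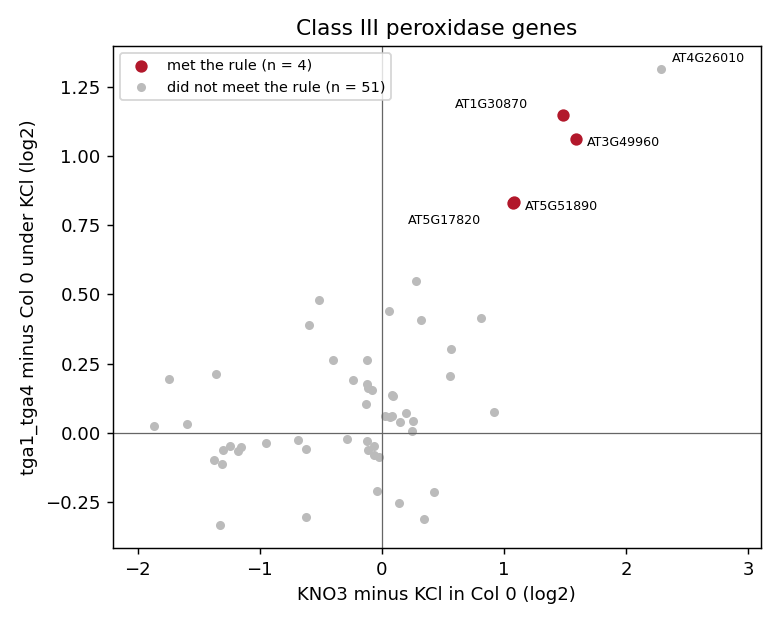
The 55 measured class III peroxidase genes, with the nitrate change in Col 0 (log2, KNO3 minus KCl) on the x axis and the difference between tga1_tga4 and Col 0 under KCl (log2) on the y axis. The 4 genes that met the rule and AT4G26010 lie at the upper right, with differences under KCl of 0.83 to 1.32, and the points of AT5G17820 and AT5G51890 nearly coincide. Both axes subtract the same Col 0 KCl mean, so a low value of it moves a point up and right. The 4 genes were also chosen on these means and AT4G26010 for its Col 0 change, so nothing is read from where they lie.

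A further 5 named members encode proline-rich or extensin-like proteins or their relatives. AT3G54580 encodes a proline-rich extensin-like protein and is the chromosomal neighbour of HRGP1, so the probes of such repetitive genes may also read one another's transcripts. It stood at 3.57, 3.40 and 2.34 in tga1_tga4 KNO3 samples, against 3.28, 2.90 and 3.38 in tga1_tga4 KCl samples. It stood at 3.54, 3.57 and 3.53 in Col 0 KNO3 samples, against 3.08, 1.66 and 2.18 in Col 0 KCl samples. The genotypes overlapped under each salt, with a low value in mutant KNO3 replicate 3 and a high one in Col 0 KCl replicate 1. The Col 0 nitrate change of AT3G54580 was not called (limma adjusted p = 0.0705).

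AT2G22510, of a hydroxyproline-rich glycoprotein family, stood at 5.46, 5.25 and 6.33 in tga1_tga4 KNO3 samples, against 4.92, 5.40 and 6.10 in tga1_tga4 KCl samples. It stood at 6.12, 5.63 and 6.52 in Col 0 KNO3 samples, against 4.73, 4.74 and 4.78 in Col 0 KCl samples. The Col 0 controls were almost level, and the mutant KCl samples all lay above them but spread widely. AT2G28440, of a proline-rich family, differed from the peroxidases in that the mutant was lower under nitrate, at 2.20, 2.01 and 1.47 in tga1_tga4 KNO3 samples, against 2.84, 2.78 and 2.45 in Col 0 KNO3 samples. Its KCl samples stood at 1.21, 1.71 and 2.23 in tga1_tga4, against 1.34, 1.45 and 1.101 in Col 0. The genotypes did not overlap under KNO3 and did under KCl.

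AT2G47540 and AT5G10130 belong to the Ole e 1 family, named for a pollen allergen and related to extensins. AT2G47540 stood at 5.58, 4.98 and 4.84 in tga1_tga4 KNO3 samples, against 4.50, 5.48 and 5.78 in tga1_tga4 KCl samples. It stood at 5.45, 4.99 and 5.06 in Col 0 KNO3 samples, against 4.26, 3.86 and 3.999 in Col 0 KCl samples. Mutant KCl replicates 2 and 3 thus lay above the nitrate-treated samples of Col 0, and mutant KCl replicate 1 stayed just above the Col 0 controls. AT5G10130 had a mean nitrate change of 0.25 in tga1_tga4 and 1.04 in Col 0, and the Col 0 change was not called (limma adjusted p = 0.135). Its mutant KCl samples, at 3.70, 4.81 and 4.94, overlapped the Col 0 KCl samples, at 3.20, 4.09 and 4.50.

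The remaining named members with a role given here include 4 other secreted or wall-acting proteins. AT4G22640, of a lipid-transfer-protein-like family, had the largest Col 0 nitrate change of the named members, at 2.09 ± 0.31, against 0.37 ± 0.31 in tga1_tga4 (log2 difference ± SE, n = 3 per group). It stood at 4.01, 4.22 and 3.87 in tga1_tga4 KNO3 samples, against 2.88, 4.13 and 3.97 in tga1_tga4 KCl samples. It stood at 4.74, 4.31 and 3.91 in Col 0 KNO3 samples, against 2.47, 2.33 and 1.89 in Col 0 KCl samples. All 3 mutant KCl samples exceeded the Col 0 KCl samples, replicate 1 by the least.

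AT2G39430, of the dirigent family, whose proteins guide the coupling of lignin and lignan precursors, stood at 6.13, 5.75 and 5.49 in tga1_tga4 KNO3 samples, against 4.82, 5.96 and 6.41 in tga1_tga4 KCl samples. It stood at 6.19, 6.18 and 6.31 in Col 0 KNO3 samples, against 4.27, 5.17 and 5.56 in Col 0 KCl samples. Within each genotype the KCl sample numbered 1 was the lowest, and its Col 0 nitrate change of 1.23 was not called (limma adjusted p = 0.103). AT1G65570 encodes a polygalacturonase, an enzyme that cuts pectin, and AT4G04460 an aspartic protease. They had nitrate changes of 0.31 and 0.44 in tga1_tga4 and 1.01 and 1.27 in Col 0, and the level of AT1G65570 was low throughout, between 0.84 and 2.55.

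**Figure D5:**
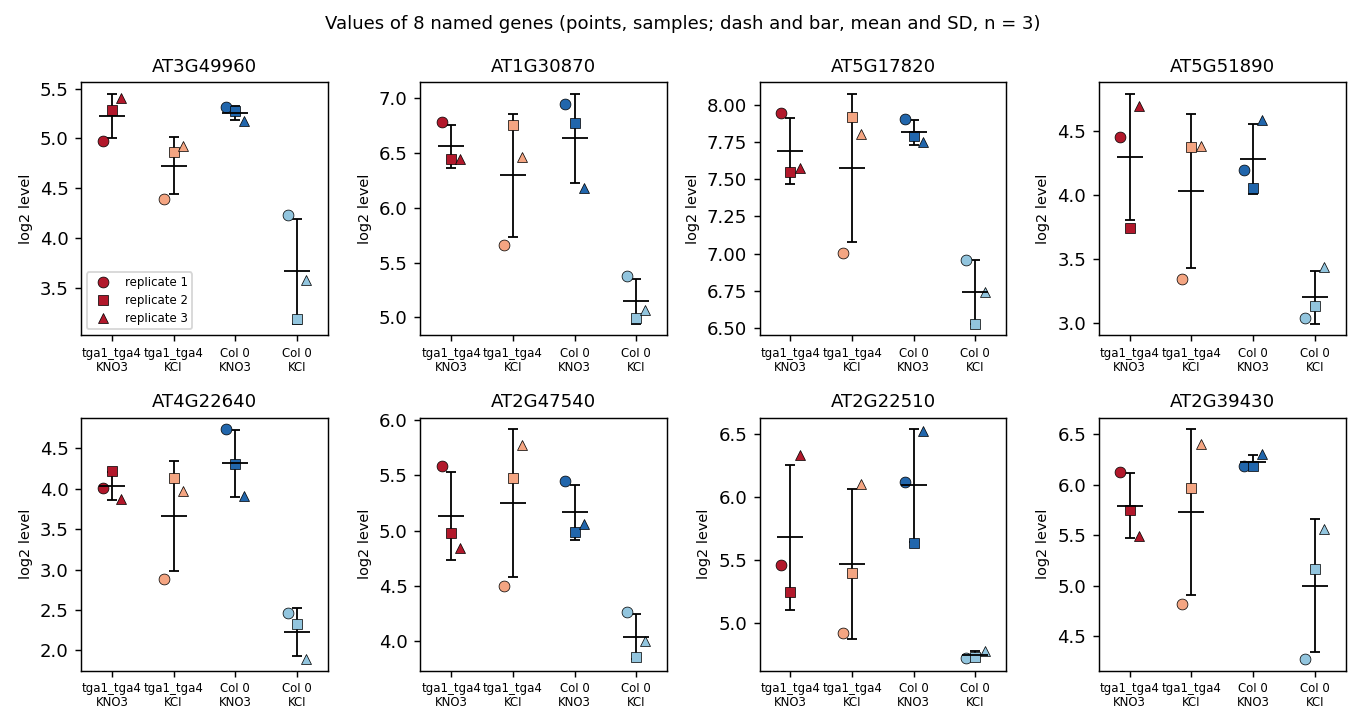
Log2 level in every sample for 8 named genes, by group on the x axis, with the mean and SD (n = 3 samples) as a dash and bar and the replicate number as the symbol. The y axes differ between panels and do not start at 0. In each gene shown, mutant KCl replicate 1, the circle in the second group, is the lowest of its group. In all but AT5G51890 and AT2G39430 the mutant KCl samples lie above every Col 0 KCl sample. Of all 20 named members, mutant KCl replicate 1 was the lowest in 17. The exceptions, AT3G54580, AT5G62770 and AT1G55265, are not shown. The mutant KCl samples lay above every Col 0 KCl sample in 12 of the 20. The 8 genes therefore do not stand for all named members.

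AT4G13440, which encodes a calcium-binding EF-hand protein, changed by 0.27 in tga1_tga4 and 1.13 in Col 0. For 6 named members no role is given here. AT5G24313 stood at 3.96, 3.39 and 2.95 in tga1_tga4 KNO3 samples, against 2.67, 3.81 and 3.39 in tga1_tga4 KCl samples. It stood at 4.08, 3.47 and 3.06 in Col 0 KNO3 samples, against 1.98, 2.12 and 2.38 in Col 0 KCl samples. The genotypes did not overlap under KCl and did under KNO3. AT1G52660, AT5G62770, AT5G67350, AT1G55265 and AT5G49560 changed with nitrate by 0.13 to 0.43 in tga1_tga4 and by 1.01 to 1.096 in Col 0. Of these, AT1G55265 had a difference of -0.69 between genotypes under nitrate, and its Col 0 KNO3 samples ranged from 2.43 to 3.92. Its Col 0 nitrate change was not called (limma adjusted p = 0.0741).

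Among the 15 members without a single gene name, 260950_s_at had the largest Col 0 nitrate change, at 2.47 ± 0.38, against 0.39 ± 0.38 in tga1_tga4 (log2 difference ± SE, n = 3 per group). Its probes match several named genes, so the value belongs to none of them alone. It stood at 5.86, 5.17 and 5.73 in tga1_tga4 KNO3 samples, against 4.72, 5.46 and 5.42 in tga1_tga4 KCl samples. It stood at 5.86, 5.33 and 5.39 in Col 0 KNO3 samples, against 4.02, 2.27 and 2.88 in Col 0 KCl samples. All mutant samples and the Col 0 nitrate samples thus lay above all Col 0 controls.

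The other unnamed probe sets with the largest Col 0 nitrate changes were 263689_at, 247871_at, 259328_at and 251297_at, at 1.59 to 1.68 in Col 0 and 0.05 to 0.35 in tga1_tga4. In 263689_at the mutant KCl samples, at 4.49, 5.65 and 5.16, overlapped the Col 0 KCl samples, at 4.71, 2.67 and 3.04, because Col 0 KCl replicate 1 was high. Its Col 0 nitrate change was not called (limma adjusted p = 0.054). In 251297_at the KCl samples of the genotypes did not overlap, at 3.78, 4.63 and 4.82 in tga1_tga4, against 3.33, 3.29 and 3.00 in Col 0. In 250683_x_at, whose suffix marks probes that can bind related transcripts, the mutant was 0.54 higher under KCl and 0.78 lower under KNO3. Of the 35, 2 further probe sets carry the suffix for probes shared by several transcripts, 260950_s_at among them. The rest of the unnamed members had Col 0 nitrate changes of 1.03 to 1.39.

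The level of some members was too low for the size of a change to be certain. In 8 of the 35 (22.9%), all 3 Col 0 KCl values lay below the median of their sample, where 47.3% of all probe sets did so. Sample medians were between 2.21 and 2.41. The 8 were AT2G28440, AT4G13440, AT1G52660, AT5G67350, AT1G55265, AT1G65570, 254338_s_at and 260344_at. No detection calls were used here, so these values are not shown to exceed background.

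Genes of nitrate assimilation and its regulation were followed beside the 35. Of 26 listed genes 7 were measured under a single name, none of them a member, and 6 rose with nitrate in each genotype (limma, Benjamini-Hochberg). Between genotypes the 7 differed by -0.27 to 0.21 under KCl and by -0.03 to 0.46 under KNO3, with 0 called under either salt (limma). PGD3, a 6-phosphogluconate dehydrogenase gene of reductant supply, rose by 4.30 in tga1_tga4 and 4.28 in Col 0. The transcription factor genes HHO1, HHO2 and HHO3 rose by 3.74, 3.84 and 3.84 in tga1_tga4 and by 3.18, 3.998 and 3.81 in Col 0. The median difference of the 7 under KCl was -0.05.

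Of 26 listed genes of root hair cells, 3 were measured under a single name, none of them a member. The expansin genes EXPA7 and EXPA18 changed with nitrate by 0.54 and 0.73 in tga1_tga4 and rose by 1.69 and 2.23 in Col 0. Their means under KCl were higher in tga1_tga4 than in Col 0 by 1.07 and 1.23, and SCN1 differed by 0.17. EXPA9, which met the limits and was left out by name, changed by 0.08 in tga1_tga4 and 1.25 in Col 0, with a KCl difference of 0.93. The part of root hair cells in the values of the 35 was not tested. Of 9 hair fate regulators TRY was measured, at a mean of 0.92, with differences between genotypes of 0.00 under KCl and -0.06 under KNO3. Of the 8 genes listed for root identity and the 8 for shoot tissue, 0 were measured under a single name, so the labelled tissue was not checked here.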

How the data were processed

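Root RNA of 12 samples was labelled with biotin and hybridised to single-channel Affymetrix arrays, per the labels' protocols. The deposited table gave log2 values (a scale inferred from the numbers), 1 per probe set and sample, while how the authors corrected, normalized and summarised the probes is not given in the sources used here. Of 22810 probe sets, 64 controls were left out. In the supplied annotation 13513 probe sets had 1 gene, 503 had more and 8730 had none, and names followed the TAIR10.1 gene table. A listed gene was represented by its probe set with the highest mean.

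With limma 3.58.1 (R 4.3.3), the 12 samples entered one linear model of 4 group means, without an intensity trend, with two-sided tests at a Benjamini-Hochberg adjusted p of 0.05 over 22746 probe sets. Only the genotype difference averaged over salts was tested on simulated data, with independent noise of equal spread in all groups. That simulation does not cover the other contrasts, unequal spread or samples that vary together by number. The number of arrays limits the precision, with a median standard error of 0.16 for a difference between 2 groups and 0.23 for the interaction. The chosen genes, the lists and the tests were selected with earlier results of these data known, and the peroxidase list was written after the members were seen. All 20 single-gene members were named, with the 5 unnamed members of largest Col 0 change and the 3 probe sets nearest each limit on each side. Of the other listed genes, at most 4 a list were named, by largest Col 0 change, beside genes the rule left out and the remaining markers measured. Roles are from general knowledge. Promoter motifs were not analysed here.

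Within a salt, same-numbered mutant and Col 0 samples deviated from their group means together, with correlations from 0.28 to 0.73 over the brighter 11373 probe sets. For KNO3 and KCl samples of a number the correlations were lower, from -0.14 to 0.23. The numbers may thus pair the genotypes within a salt, but the labels do not say so and the main model does not use it.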

Additional observations from a re-analysis of the deposited data

How the results depend on the processing

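The number of probe sets that met the rule was 35, and with 1 sample left out it ran from 28 to 63, of which 23 to 35 were shared with the 35. It was 63 without Col 0 KNO3 replicate 2 and 63 without tga1_tga4 KCl replicate 1. It was 43 after quantile normalization, 28 with low probe sets filtered out, and 36 with the replicate numbers paired. The count of all probe sets called for the genotype difference averaged over salts (5) was 10 with the replicate block of salt and number, 8 with that block as random and 9 with array quality weights. With 1 sample left out it ran from 4 to 6. Under these and the other alternatives run (an intensity trend, quantile normalization, the filter and a block of number alone), 0 of the 35 were called for that difference. Its median over the 35 stayed above 0, between 0.20 and 0.35. With the block of salt and number, and with the block of number alone, 0 of the 35 were called for the interaction. The nitrate changes and the differences under each salt were not examined with a block. The median difference between tga1_tga4 and Col 0 under KCl, an alternative added after seeing the data, ran from 0.63 to 0.90 with 1 sample left out. The causes of these shifts were not tested.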
